A study of Homo sapiens with 2 samples.

Results

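The 10 genes described here encode proteins of the smooth muscle contractile apparatus: ACTA2, ACTG2, TAGLN, CNN1, TPM2, LMOD1, MYH11, MYL9, DES and HSPB6. They were chosen by symbol as a set of contractile genes, and all 10 were found among the 36601 genes of the count matrices. They were followed in 2 single-cell RNA libraries of colon organoids grown from the human iPS (induced pluripotent stem) cell line 1383D6, although the sample titles speak of epithelial cells. The organoids of the library CNT were untreated, and those of the library 3CK spent 8 days with 3 inflammatory cytokines (IL-1β, TNF-α and IFN-γ). Both libraries came through the same differentiation, with Activin A and the ROCK inhibitor Y-27632, then FGF2, and, once embedded in Matrigel, EGF, Forskolin, PD98059, 5-Aza-2'-Deoxycytidine and a further agent whose name is cut short in the labels, on media with serum in the early steps. The series title presents the treated organoids as a model of ulcerative colitis. Each group is 1 library of 1 line, so no test across replicates was possible, and every interval is a 95% interval that covers counting error only.

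Smooth muscle cells shorten when myosin filaments pull on actin filaments, after calcium and calmodulin switch on a kinase that phosphorylates the regulatory light chain of myosin. Tropomyosin, calponin and related proteins bind the actin filaments, and desmin filaments tie the machinery together. Many of these genes share CArG boxes, DNA motifs bound by serum response factor with its partner myocardin, and they come on in an order during development: ACTA2 and TAGLN are also expressed by myofibroblasts and immature mesenchyme, whereas MYH11, LMOD1 and CNN1 at high levels mark mature muscle.

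The cells examined were those with at least 10000 unique molecular identifiers (UMIs), at least 5 UMIs of COL1A1, COL1A2 and COL3A1 together per 10000 and under 1 UMI of EPCAM per 10000. None of the 10 genes was used in this gate. It took 311 CNT cells (21.3% of 1457 deep cells, exact binomial interval 19.3 to 23.5) and 106 3CK cells (10.7% of 995, interval 8.80 to 12.7), with medians of 52981 and 76590 UMIs per cell and sums of 19291035 and 9085024 UMIs. The barcodes of the 2 libraries did not overlap. The collagens that define the gate were themselves lower in 3CK, at a median of 24.4 UMIs per 10000 in the gated cells against 64.3 in CNT. Just inside the threshold, between 5 and 10 collagen UMIs per 10000, lay 16 CNT and 32 3CK cells. Just outside it, between 2 and 5, lay another 16 and 28. The EPCAM-low cells that missed the collagen threshold (65 in CNT and 89 in 3CK) carried TAGLN at 72.9 and 311 CPM (UMIs per 1000000 UMIs) and DES at 11.7 and 146 CPM, so the threshold bears on the comparison of these genes. The gated cells also carried keratin transcripts, with KRT18 at 4953 and 6962 CPM.

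Some defining genes of mature smooth muscle were low. MYH11, the smooth muscle myosin heavy chain, had 20 UMIs in 311 CNT cells and 5 in 106 3CK cells. LMOD1 and CNN1 stayed under 10 CPM in both libraries, and KCNMB1, a potassium channel subunit of smooth muscle, had 0 and 1 UMI. TPM2, TAGLN, MYL9 and ACTA2 were abundant. DES stood at 70.3 and 85.0 CPM. Of 11 further visceral smooth muscle genes, 8 reached 10 CPM in either library, as did 10262 of all 36601 genes. Among the 8, MYOCD, CHRM2 and NPNT reached it in CNT only. PPP1R14A and NPNT are not read as muscle genes below, since epithelial cells carried them as well. Since the markers went both ways, the cells are called mesenchymal cells with contractile transcripts. Whether some of them are smooth muscle cells was not settled.

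Summed over the 10 genes, mesenchymal cells held 1562 CPM in CNT against 1789 in 3CK. TPM2 and TAGLN led in both libraries, followed by MYL9 and then ACTA2. DES, HSPB6 and ACTG2 lay below 100 CPM in both libraries, and LMOD1, CNN1 and MYH11 were the 3 lowest. Since each captured transcript is counted at its 3' end, these CPM levels need no correction for gene length. Compared with epithelial cells (EPCAM at least 1 and collagens under 5 UMIs per 10000), the level was higher in mesenchymal cells beyond counting error for all genes but CNN1 in CNT (1.34-fold) and all but MYH11 in 3CK (0.905 times, on 5 UMIs). In CNT the gap was widest for DES, at 105-fold, followed by HSPB6 at 40.3-fold. In 3CK it was widest for ACTG2, at 103-fold (1.85-fold in CNT), followed by DES at 39.4-fold and HSPB6 at 38.3-fold. It was narrower for TPM2 (2.93-fold and 7.20-fold) and MYL9 (2.17-fold and 4.39-fold), which epithelial cells carried as well.

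**Figure D1:**
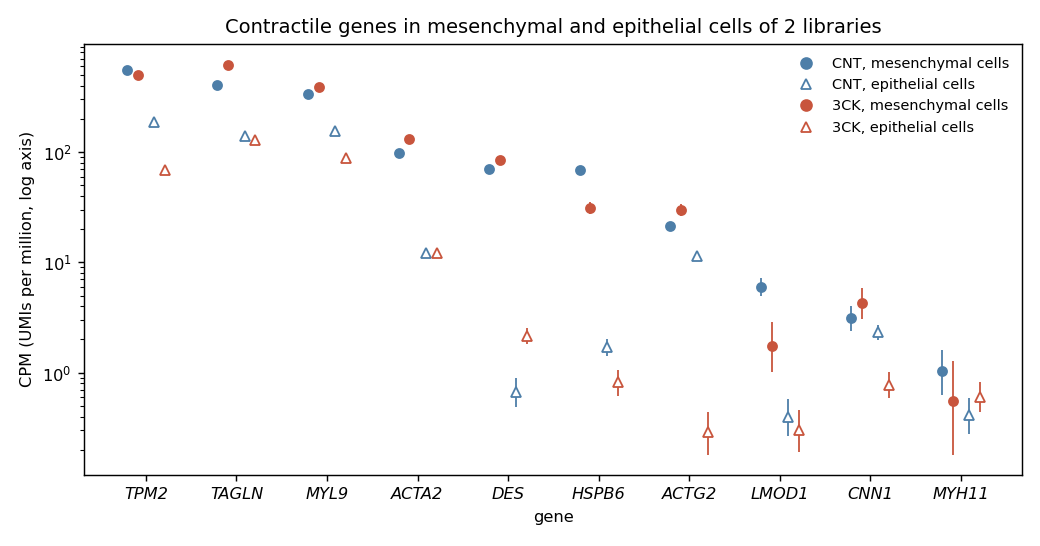
Level of each of the 10 contractile genes (x axis) in CPM on a log axis (y axis), with exact Poisson intervals, in mesenchymal cells (circles) and epithelial cells (triangles) of CNT (blue) and 3CK (red). TPM2, TAGLN and MYL9 lie between 336 and 618 CPM in mesenchymal cells, MYH11 lies at about 1 CPM, and ACTG2 shows a gap between the libraries in epithelial cells.

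ACTA2 and ACTG2 encode the smooth muscle α- and γ-actins, the thin filament proteins of vascular and enteric muscle. ACTA2 stood at 98.8 CPM in CNT mesenchymal cells against 133 in 3CK, a log2 ratio of 0.42 (interval 0.32 to 0.53). The sign of this ratio depended on the setting. Over all EPCAM-low deep cells it was -0.02, and it was -0.36 without the 5 cells of each library with the most UMIs of the 10 genes. That step left 1494 of 1906 ACTA2 UMIs in CNT and 536 of 1204 in 3CK. The cells were picked by the same genes, ACTA2 included, and 5 is a larger part of 106 3CK cells than of 311 CNT cells. A fall of the ratio is thus partly built in. With other settings it was higher. It was 0.81 with the collagen threshold at 10 UMIs per 10000, 1.05 without cycling cells and 1.69 in cells with no EPCAM UMI. ACTG2 stood at 21.2 CPM in CNT against 29.8 in 3CK, a log2 ratio of 0.49 (0.27 to 0.72), which was 0.97 with collagen at 10 and 1.28 in cells with no EPCAM UMI. Without cells that held PTPRC or at least 3 UMIs of TYROBP, both leukocyte genes, the ratios turned to -0.10 for ACTA2 and -0.20 for ACTG2. The ACTG2 value then rested on 252 UMIs in CNT and 53 in 3CK. This cut took no account of depth, and cells were deeper in 3CK (median 76590 UMIs) than in CNT (52981). On GRCh38 (GENCODE v44) ACTA2 lies at chr10:88935074-88991339 on the minus strand and ACTG2 at chr2:73892314-73919865 on the plus strand. The actin genes are near-identical in their coding sequence, but transcripts were counted at their 3' end. How well reads were split between ACTA2, ACTG2 and the other actins was not examined.

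The promoters of actin genes are textbook cases of CArG control, so the RefSeq windows of 250 bases before each start (GRCh38.p14) were searched for the CArG box, CC followed by 6 letters that are A or T and then GG. The motif reads the same class of letters on both strands. Of the 10 genes, 6 had a window: ACTA2, ACTG2, LMOD1, TPM2, CNN1 and HSPB6. An exact match occurred in 407 of 35116 windows (1.16%), and a match exact or off by 1 letter in 16.8%. The sequences below run 5′ to 3′ on the gene's strand, with matches in capitals. For ACTA2 the window of its second listed start (chr10:88952774-88953023, minus strand) held 2 matches that are each 1 letter off, beginning 121 and 71 bases before the start. For LMOD1 (chr1:201946549-201946798, minus strand) there were 2 such matches, 185 and 160 bases before the start. ACTG2 had 2 exact matches, shown with 10 flanking bases on each side (chr2:73892888-73892917 and chr2:73892925-73892954, plus strand), 110 and 73 bases before its start, and another site off by 1 letter at 239 bases. HSPB6 had 1 match off by 1 letter, 114 bases before its start (chr19:35757124-35757153, minus strand).
ACTA2: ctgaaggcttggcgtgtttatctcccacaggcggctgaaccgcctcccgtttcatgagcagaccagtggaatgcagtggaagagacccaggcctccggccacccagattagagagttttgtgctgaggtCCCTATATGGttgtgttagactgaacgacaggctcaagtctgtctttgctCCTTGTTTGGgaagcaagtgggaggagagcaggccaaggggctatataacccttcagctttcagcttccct
LMOD1: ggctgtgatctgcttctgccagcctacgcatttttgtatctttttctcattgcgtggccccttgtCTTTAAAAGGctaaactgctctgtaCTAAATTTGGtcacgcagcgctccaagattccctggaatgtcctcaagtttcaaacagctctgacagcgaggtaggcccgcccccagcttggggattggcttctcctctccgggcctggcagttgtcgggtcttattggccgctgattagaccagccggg
ACTG2, 110 bases before the start: gaaaaaaccaCCTTATATGGtaatattgct
ACTG2, 73 bases before the start: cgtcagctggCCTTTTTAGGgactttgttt
HSPB6: gtttgggtttCTAAATAAGGctctcctaat
As reported, ACTA2 and ACTG2 had higher CPM in 3CK, with a sign that depended on the setting, while LMOD1 and HSPB6 had lower CPM. The other ACTA2 window (chr10:88991338-88991587, minus strand) had no match, and neither did the windows of CNN1 and TPM2. With so few windows, no link between matches and direction is read. A match is a stretch of letters, and binding was not measured.

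TAGLN (transgelin, SM22α) and CNN1 (calponin) belong to 1 family of actin-binding proteins, and TPM2 is the β-tropomyosin that lies along the actin filament. On the same annotation they lie at chr11:117199370-117207464 (TAGLN, plus), chr19:11538767-11550323 (CNN1, plus) and chr9:35681992-35690056 (TPM2, minus). TAGLN had the largest ratio of the 10 genes, with 406 CPM in CNT against 618 in 3CK, a log2 ratio of 0.61 (0.56 to 0.66). It was higher in 3CK under each of 15 other settings of the filters, gate and scaling, from 0.36 without the 5 cells richest in the 10 genes to 1.91 in the 113 CNT and 31 3CK cells with no EPCAM UMI. CNN1 stood at 3.11 CPM in CNT against 4.29 in 3CK on 60 and 39 UMIs, and its interval for the log2 ratio (-0.16 to 1.07) includes 0. Without cells with leukocyte transcripts the CNN1 ratio was -2.50, on 2 UMIs in 3CK. TPM2, the most abundant of the 10 genes in CNT, stood at 551 CPM there and 497 CPM in 3CK. Its log2 ratio of -0.15 (-0.20 to -0.10) changed sign under 6 of the 15 other settings, among them TMM scaling (0.02) and equal weight for each cell (0.03).

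MYH11 and MYL9 encode the heavy chain and the regulatory light chain of smooth muscle myosin, and LMOD1 (leiomodin) starts new actin filaments. They lie at chr16:15703135-15857028 (MYH11, minus), chr20:36541497-36551447 (MYL9, plus) and chr1:201896456-201946548 (LMOD1, minus). MYL9 stood at 336 CPM in CNT against 389 in 3CK, a log2 ratio of 0.21 (0.15 to 0.27) that stayed positive under all 15 other settings but came down to 0.01 over all EPCAM-low deep cells. MYH11 stood at 1.04 CPM in CNT against 0.550 in 3CK, and its interval (-2.68 to 0.54) includes 0, so no difference was detectable at this depth. LMOD1 stood at 5.96 CPM in CNT against 1.76 in 3CK on 115 and 16 UMIs, a log2 ratio of -1.76 (-2.61 to -1.0). It was lower in 3CK under all 15 settings, from -2.98 without cells with leukocyte transcripts (on 3 UMIs in 3CK) to -0.28 in cells with no EPCAM UMI.

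DES encodes desmin, the intermediate filament protein of muscle, and HSPB6 is a small heat shock protein linked to muscle relaxation through cyclic nucleotide signalling. They lie at chr2:219418377-219426735 (DES, plus) and chr19:35754566-35758079 (HSPB6, minus). DES stood at 70.3 CPM in CNT against 85.0 in 3CK, a log2 ratio of 0.27 (0.14 to 0.40). The ratio was 1.07 with the collagen threshold at 2 UMIs per 10000 and -0.05 without cycling cells. HSPB6 stood at 68.4 CPM in CNT against 31.3 in 3CK, a log2 ratio of -1.13 (-1.32 to -0.94). It was lower in 3CK under all 15 settings, from -2.06 in cells with no EPCAM UMI to -0.57 with equal weight for each cell.

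Of the 10 genes, 7 reached 10 CPM in either library. Of these, 0 were higher by 2-fold or more in 3CK, against 4.77% of the 10262 genes at that level, and 1 (HSPB6) was lower, against 9.39%. At 1 CPM all 10 genes passed, and 0 were higher, against 6.14% of 17250 genes, while 2 (HSPB6 and LMOD1) were lower, against 16%. The counts depended on the gate: in cells with no EPCAM UMI, 3 of the 7 were higher (TAGLN, ACTA2 and ACTG2) and 1 lower (HSPB6). Without cycling cells 2 were higher (TAGLN and ACTA2) and 0 lower, and with collagen at 2 DES was higher and HSPB6 lower. Nothing particular to the 10 genes is read from such small counts. The median log2 ratio was 0.27 over the 7 genes and -0.11 over all genes at 10 CPM. With TMM scaling the median of all genes moved to 0.05. The genes did not share a direction. TAGLN and MYL9 were higher in 3CK under every setting run, HSPB6, LMOD1 and MYH11 were lower under every setting run (MYH11 within its counting error), though cycling cells taken alone had less TAGLN and MYL9 in 3CK, and the sign for ACTA2, ACTG2, CNN1, TPM2 and DES depended on the setting.

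**Figure D2:**
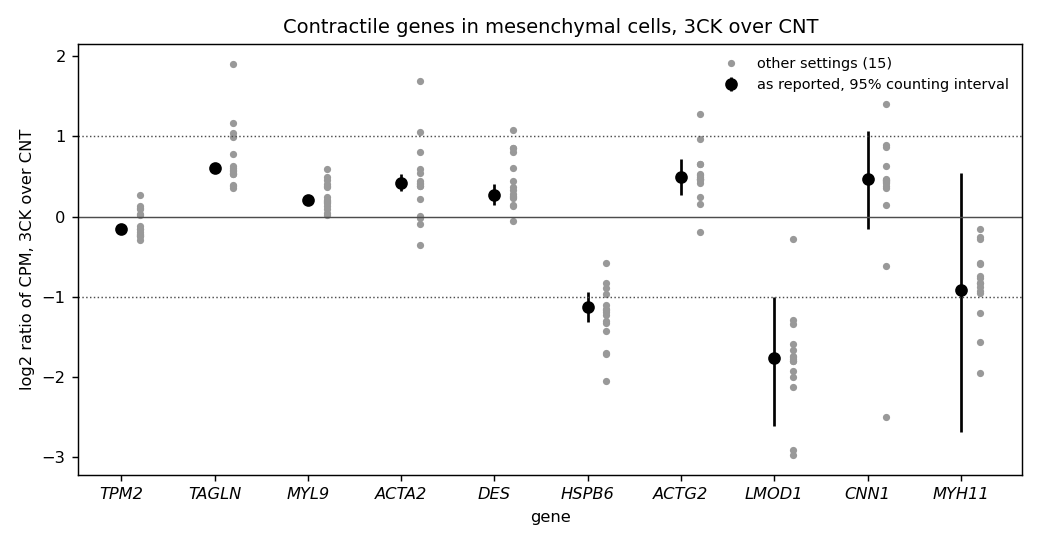
Log2 ratio of CPM in mesenchymal cells, 3CK over CNT (y axis), for each gene (x axis), with its 95% counting interval (black) and the value under 15 other settings (grey); dotted lines mark 2-fold. HSPB6 and LMOD1 lie below 0 throughout and TAGLN above it, while the grey points of ACTA2, ACTG2, CNN1, TPM2 and DES lie on both sides.

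Around the 10 genes, other parts of the contractile system were compared as lists. Over all 10262 genes at 10 CPM in either library, 4.77% were higher by 2-fold and 9.39% lower, with a median of -0.11. List counts of 1 or 2 genes are not read as results beside these shares. Of 16 further genes of the contractile apparatus, all at 10 CPM or more, 1 was higher by 2-fold and 1 lower, with a median log2 ratio of 0.04. The higher gene was SMTN (smoothelin, an actin-binding protein of contractile muscle), at 24.6 CPM in CNT against 52.4 in 3CK, a log2 ratio of 1.09 (0.90 to 1.28). The lower gene was VCL (vinculin, which anchors actin at adhesion sites), at 317 and 157 CPM, a log2 ratio of -1.02 (-1.10 to -0.93). ACTB, the β-actin of all cells, was the most abundant at 2688 and 3578 CPM. TAGLN2, a relative of TAGLN found in many cell types, stood at 272 and 540 CPM, just under 2-fold.

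Among 9 genes that control the light chain, with a median of -0.37, 0 were higher by 2-fold and 2 were lower (4.77% and 9.39% over all genes). These were PPP1R12B, a targeting subunit of myosin phosphatase (27.2 CPM in CNT, 11.4 CPM in 3CK, log2 ratio -1.25), and PRKG1, the cGMP-dependent kinase of relaxation (82.2 and 35.6 CPM, -1.21). The paralog PPP1R12A was higher instead, at 108 and 153 CPM (0.50, interval 0.40 to 0.60). MYLK, the light chain kinase, stood at 96.3 and 67.5 CPM (-0.51), and RHOA, the GTPase that acts through ROCK to keep the chain phosphorylated, at 240 and 247 CPM.

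Of 12 transcription factors and cofactors, 9 reached 10 CPM. Of these, 1 was higher by 2-fold and 2 were lower (4.77% and 9.39% over all genes). MYOCD, the myocardin that drives contractile genes with serum response factor, had 204 UMIs in the CNT cells against 10 in the 3CK cells, or 10.6 and 1.10 CPM, a log2 ratio of -3.26 (-4.35 to -2.36). It was lower under all 15 settings, from -5.11 (on 2 UMIs in 3CK) to -2.35 (on 4). Serum response factor itself, SRF, stood at 8.35 and 9.80 CPM, with an interval (-0.16 to 0.61) that includes 0. The myocardin relatives MRTFA (79.7 and 54.2 CPM, -0.56) and MRTFB (36.4 and 18.6 CPM, -0.97) were lower by less than 2-fold. KLF4, which can repress contractile genes, was higher, at 8.14 and 17.6 CPM (1.11, interval 0.79 to 1.44). KLF4 was found in 7.40% and 15.1% of mesenchymal cells thinned to 10000 UMIs but in 20.1% and 32.9% of epithelial cells. Its ratio lay between 0.86 and 1.41 over the 15 settings. Whether RNA from epithelial cells added to its mesenchymal level was not tested. GATA6, the second factor lower by 2-fold, stood at 46.9 and 23.0 CPM, and epithelial cells carried more of it, at 110 and 58.4 CPM.

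Of 9 genes of calcium and ion handling, 6 reached 10 CPM, with a median of -1.04. Of these, 3 were lower by 2-fold and 0 higher (9.39% and 4.77% over all genes). The highest ratio among the 6 was that of ATP2A2, the calcium pump (87.7 and 71.7 CPM, -0.29). CHRM2, a muscarinic acetylcholine receptor of visceral muscle, stood at 38.3 CPM in CNT against 3.85 in 3CK on 739 and 35 UMIs, a log2 ratio of -3.31 (-3.85 to -2.82). CACNA1C, the pore of the L-type calcium channel, stood at 111 and 48.2 CPM (-1.21, interval -1.36 to -1.06). RYR2, a calcium release channel, stood at 29.4 and 8.26 CPM (-1.83). CHRM3, the receptor that couples to contraction, lay under 10 CPM with 148 and 10 UMIs (-2.80), and PLN, the regulator of the calcium pump, had 61 and 2 UMIs (-3.84, interval -6.92 to -1.93). The ratio of CHRM2 lay between -4.03 and -3.04 over the 15 settings, that of CACNA1C between -1.52 and -0.80, and that of RYR2 between -2.47 and -0.73. PLN had 4 and 0 UMIs in cells with no EPCAM UMI, too few for a ratio.

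A list of 12 genes for filament linkers and small heat shock proteins had a median of -0.17. In it, 2 were lower by 2-fold and 0 higher (9.39% and 4.77% over all genes). ITGA8, an integrin subunit of contractile mesenchyme, stood at 18.1 CPM in CNT against 2.64 in 3CK (-2.78, interval -3.44 to -2.18), and PDLIM3, an α-actinin-binding protein, at 17.8 and 4.40 CPM (-2.01). CSRP1, a LIM protein of smooth muscle, had the largest ratio, at 139 and 217 CPM (0.64). VIM was the most abundant, at 3784 and 4568 CPM. The small heat shock gene HSPB1, a relative of HSPB6, stood at 313 and 319 CPM and HSPB8 at 13.2 and 12.8 CPM, and both intervals include 0.

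In the TGF-β pathway, which can induce contractile genes in mesenchyme, 14 of 15 genes reached 10 CPM, with a median of -0.30. Of these, 1 was higher by 2-fold and 1 lower (4.77% and 9.39% over all genes). LTBP1, which binds latent TGF-β in the matrix, was the lower gene, at 72.1 and 20.5 CPM (-1.82). The ligand TGFB1 stood at 93.3 and 77.8 CPM.

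**Figure D3:**
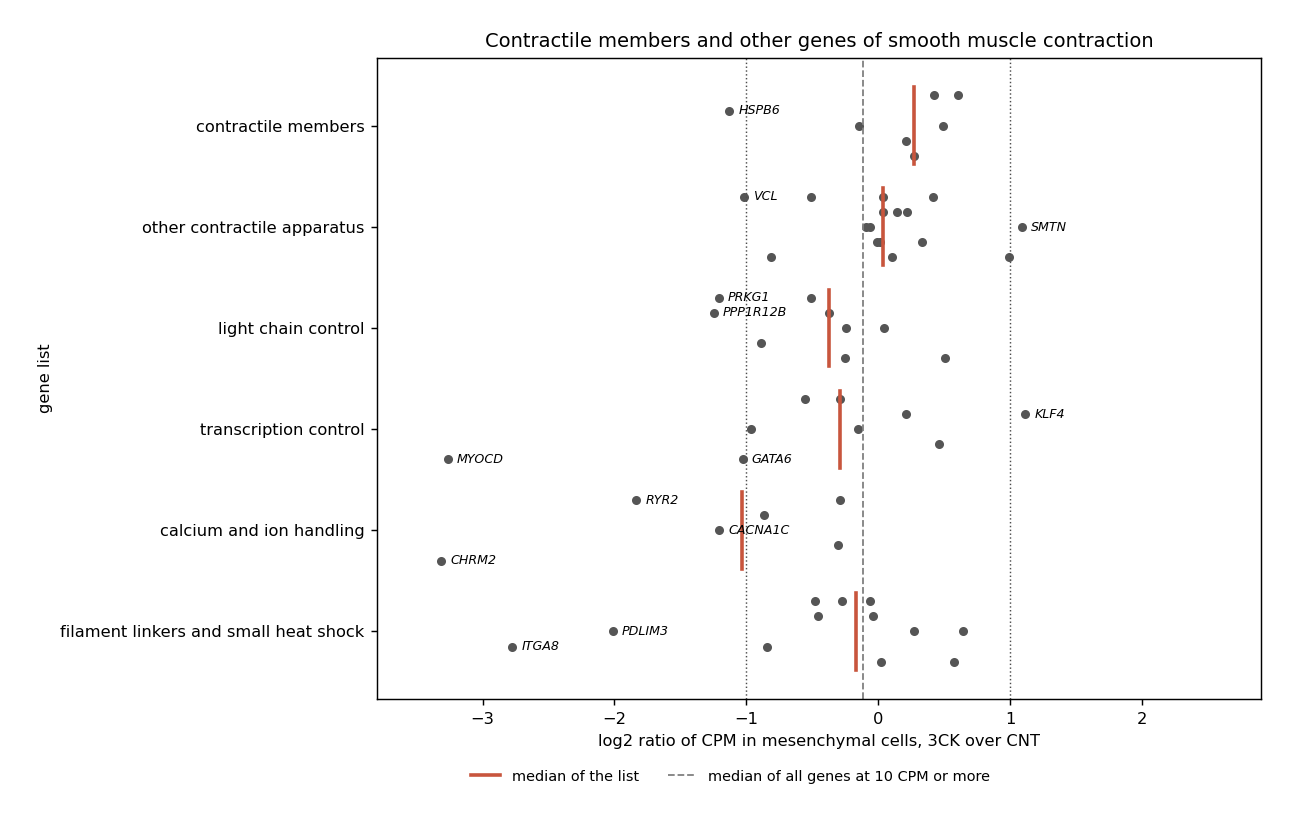
Log2 ratio of CPM in mesenchymal cells, 3CK over CNT (x axis), for each gene with at least 10 CPM in either library, by list (y axis); red bars are list medians, the dashed line is the median of all genes and genes past 2-fold (dotted lines) are named. MYOCD, CHRM2 and ITGA8 lie farthest to the left, while 6 of the 7 contractile genes lie within 2-fold.

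Markers of other cell types differed as well, and apart from the settings above their part in these results was not tested. The counts below stand beside 4.77% of all genes at 10 CPM higher by 2-fold and 9.39% lower. Of 5 leukocyte genes, 3 reached 10 CPM and all 3 were higher by 2-fold, with a summed level of 56.6 CPM in CNT against 199 in 3CK. PTPRC, the defining leukocyte surface gene, stood at 0.518 and 3.63 CPM, and LYZ had 1 and 2 UMIs. CD68 was the most abundant, at 26.8 and 91.5 CPM. It was found in 17.0% and 40.6% of thinned mesenchymal cells against 20.3% and 32.5% of epithelial cells. Whether RNA from epithelial cells added to the mesenchymal shares of CD68 was not tested. TYROBP was found in 16.7% and 34.0% of thinned mesenchymal cells, against 1.11% and 2.42% of epithelial cells. Without the cells that held PTPRC or at least 3 UMIs of TYROBP, 248 CNT and 52 3CK cells were left, and the log2 ratio was 0.54 for TAGLN, 0.37 for MYL9 and DES and -1.33 for HSPB6. Of 10 fibroblast genes, 5 were lower by 2-fold and 0 higher. The lower genes include COL1A1 (log2 ratio -1.75), COL1A2 (-1.35) and COL3A1 (-1.26). These define the gate, so the count is not independent of it. COL3A1 stood at 3336 and 1392 CPM and DCN at 1219 and 1209 CPM. Of 8 pericyte genes, 3 reached 10 CPM, 2 were lower and 0 higher, and MCAM led with 48.4 and 31.5 CPM. A list of 11 visceral smooth muscle genes that holds none of the 10 had 8 at 10 CPM, of which 1 was higher (SMTN) and 3 were lower (MYOCD, CHRM2 and NPNT), with a median of -0.86. PPP1R14A, an inhibitor of myosin phosphatase, led it at 80.2 and 43.4 CPM. Epithelial cells carried more PPP1R14A, at 363 and 163 CPM, and NPNT stood there at 32.7 and 2.72 CPM against 16.4 and 7.04 CPM in mesenchymal cells, so neither gene is read as a muscle gene here. Among 15 striated muscle genes, 2 reached 10 CPM. ACTC1 stood at 7.52 and 13.9 CPM, MYOG had 0 UMIs in both libraries, and MYOD1 had 1 and 0. Mesothelial genes were led by KRT19 (755 and 620 CPM), genes of interstitial cells of Cajal by ETV1 (14.6 and 9.69 CPM), endothelial genes by KDR (32.7 and 8.04 CPM) and neural genes by TUBB3 (173 and 104 CPM). KDR was the only 1 of 5 endothelial genes at 10 CPM, and the others did not share its direction. Their log2 ratios, on few UMIs, were 3.41 for CLDN5, 2.89 for CDH5, 0.86 for PECAM1 and -0.24 for VWF. The hepatic gene TTR stood at 955 and 220 CPM. All 10 IFN-γ response genes and all 10 NF-κB targets were higher in 3CK by 2-fold or more, led by B2M (2231 and 9682 CPM) and CXCL1 (39.2 and 2120 CPM). None of 12 cell cycle genes passed 2-fold, with TYMS at 154 and 143 CPM.

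To compare cells of different depth, each cell was thinned to 10000 UMIs, which kept all 311 and 106 cells. TPM2 was found in 83.6% of CNT and 82.1% of 3CK cells, and MYL9 in 63.0% and 74.5%, a difference of 11.5 percentage points (Newcombe interval 1.08 to 20.7). The MYL9 difference was -4.02 points over all EPCAM-low deep cells. TAGLN was found in 40.2% and 50.9%, a difference of 10.8 points (-0.14 to 21.5). DES showed the widest difference of the 10 genes, with 14.1% of CNT and 30.2% of 3CK cells, or 16 points (7.02 to 26.0), while its CPM differed by 0.27 on the log2 scale. Over 11 other settings the DES difference ran from 3.77 to 27.8 points, and 2 of these values lay outside the interval. HSPB6 was found in 23.5% and 15.1% of cells (-8.38 points, -15.9 to 0.76). ACTG2 was found in 7.72% and 8.49%, LMOD1 in 4.50% and 2.83%, MYH11 in 2.57% and 0.943%, and CNN1 in 1.29% and 3.77%, with intervals of the difference that include 0. For ACTA2 the shares, 39.5% and 32.1%, went against the CPM, and no order is read from them. Without thinning, DES was found in 29.3% and 53.8% of cells and ACTA2 in 71.7% and 78.3%.

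Free RNA can place a UMI in a cell that does not express a gene, so the same shares were taken in epithelial cells (987 in CNT and 784 in 3CK, medians 66569 and 91282 UMIs before thinning). DES was found in 0.709% and 0.893% of these and HSPB6 in 1.42% and 0.638%, far below the shares in mesenchymal cells. TPM2 was found in 54.5% and 31.5% of epithelial cells, MYL9 in 42.0% and 32.4%, and TAGLN in 18.5% and 26.1%. CNN1 in CNT (1.72% of epithelial cells) and MYH11 in 3CK (1.15%) were found in at least as large a share of epithelial as of mesenchymal cells. These mesenchymal shares cannot be told apart from free RNA. Among the other genes, CHRM2 was found in 26.7% of CNT and 5.66% of 3CK mesenchymal cells (-21.0 points, -27.0 to -13.3) and in 0.811% and 1.02% of epithelial cells.

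The transcripts were unevenly spread over cells. The summed UMIs of the 10 genes had a median of 7 per thinned CNT cell (middle 50% from 3 to 14, highest 249) and 9 per 3CK cell (4 to 18.75, highest 180). The top 10% of cells held 45.8% of these UMIs in CNT and 50.8% in 3CK. TAGLN was concentrated in few cells, with 78.4% and 71.4% of its UMIs in the top 10%, while TPM2 was spread more widely (38.5% and 43.5%). The number of the 10 genes found in a cell had a median of 3 in both libraries and reached at most 7. At least 4 were found in 30.5% of cells in CNT (interval 25.5 to 36.0) and in 32.1% in 3CK (interval 23.3 to 41.8). None of the 10 was found in 10 CNT and 3 3CK cells.

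**Figure D4:**
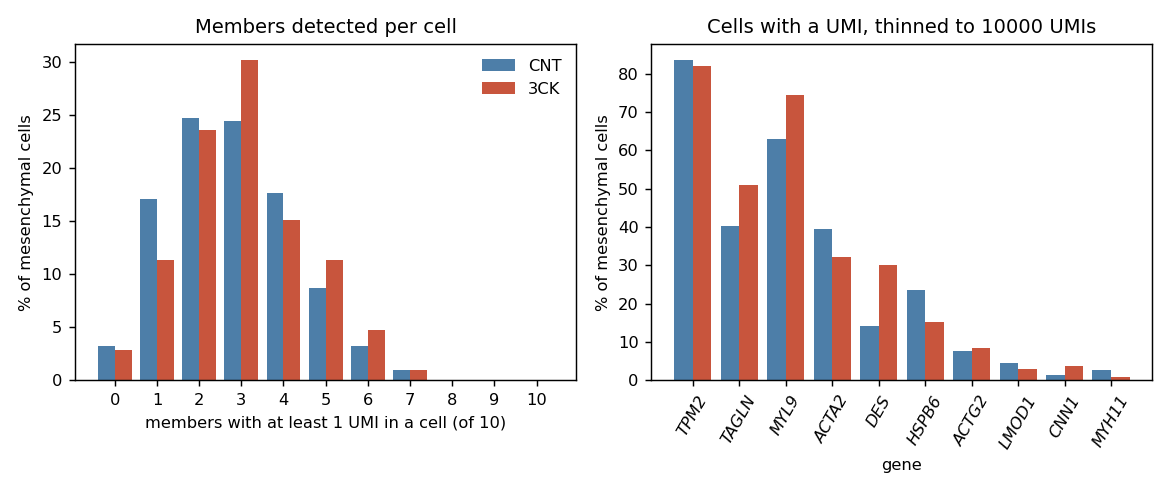
Left, share of mesenchymal cells (y axis, %) by the number of the 10 genes found in a cell thinned to 10000 UMIs (x axis); right, share of cells (y axis, %) with a UMI of each gene (x axis), in CNT (blue) and 3CK (red). No cell holds more than 7 of the genes, and DES is in 14.1% of CNT and 30.2% of 3CK cells.

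For each of the 45 pairs, the share of cells with both genes was set beside the product of their single shares. The pair was found more often than the product in 29 pairs in CNT and 31 in 3CK. Correlations across cells are given as descriptions, since the cells of a library share its preparation. The median Spearman rho over the pairs was 0.09 in CNT (311 cells) and 0.07 in 3CK (106 cells). TAGLN, TPM2 and MYL9 formed the group with the highest values in CNT: TAGLN with MYL9 0.46, TPM2 with MYL9 0.43 and TAGLN with TPM2 0.39. In 3CK the rho of TAGLN with TPM2 was 0.53 and that of TAGLN with MYL9 0.51, but TPM2 with MYL9 had 0.32. Pairs with an actin gene were higher there, at 0.53 for ACTA2 with ACTG2, 0.44 for ACTG2 with TAGLN, 0.41 for ACTG2 with MYL9 and 0.40 for ACTA2 with TAGLN. Of 125 CNT cells with TAGLN, 80.0% had MYL9, against 51.6% of the 186 without it. In 3CK the shares were 85.2% of 54 and 63.5% of 52.

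ACTG2 was found in few cells, and these often held ACTA2, TAGLN, TPM2 and MYL9. Of 24 CNT cells with ACTG2, 70.8% had ACTA2 (36.9% of the 287 without), 79.2% had TAGLN and 95.8% had TPM2. In 3CK all 9 cells with ACTG2 had ACTA2, TAGLN, TPM2 and MYL9, while ACTA2 was found in 25.8% of the 97 others. This did not extend to HSPB6, found in 20.8% of CNT cells with ACTG2 and 23.7% without, and in 0 of 9 and 16.5% in 3CK. DES was found in 29.2% and 12.9% in CNT but in 1 of 9 and 32.0% in 3CK. LMOD1 was found in 4.17% and 4.53% in CNT but in 2 of 9 and 1.03% in 3CK, where only 3 cells held it.

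DES and HSPB6 were the genes with rho below 0 to the rest in 3CK. The rho of DES with the sum of the other 9 genes was 0.17 in CNT and -0.11 in 3CK, and that of HSPB6 was 0.22 and -0.11. By contrast TAGLN had 0.50 and 0.61 and MYL9 0.53 and 0.51. DES and HSPB6 went together in CNT, where 22 of the 44 cells with DES had HSPB6, against 19.1% of the 267 without (rho 0.28). In 3CK, HSPB6 was in 15.6% of the 32 cells with DES and 14.9% of the 74 without. Such weak values in sparse counts are no finding. In CNT, cells with DES carried TAGLN at 821 CPM, ACTA2 at 184 CPM and LMOD1 at 18.1 CPM, against 323, 82.0 and 3.54 CPM in cells without. In 3CK, cells with DES carried TAGLN at 291 CPM and ACTA2 at 83.2 CPM, against 757 and 153 CPM in cells without. The 3CK difference lay in the pooled UMIs and not in the shares of cells: TAGLN was found in 50% of 3CK cells with DES and 51.4% without, and ACTA2 in 34.4% and 31.1%. The median of the other 9 genes was 7.5 and 7 UMIs per cell in 3CK, and 10 and 6 in CNT. SMTN was higher in DES cells of both libraries, at 45.3 against 20.5 CPM in CNT and 88.4 against 37.1 CPM in 3CK.

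**Figure D5:**
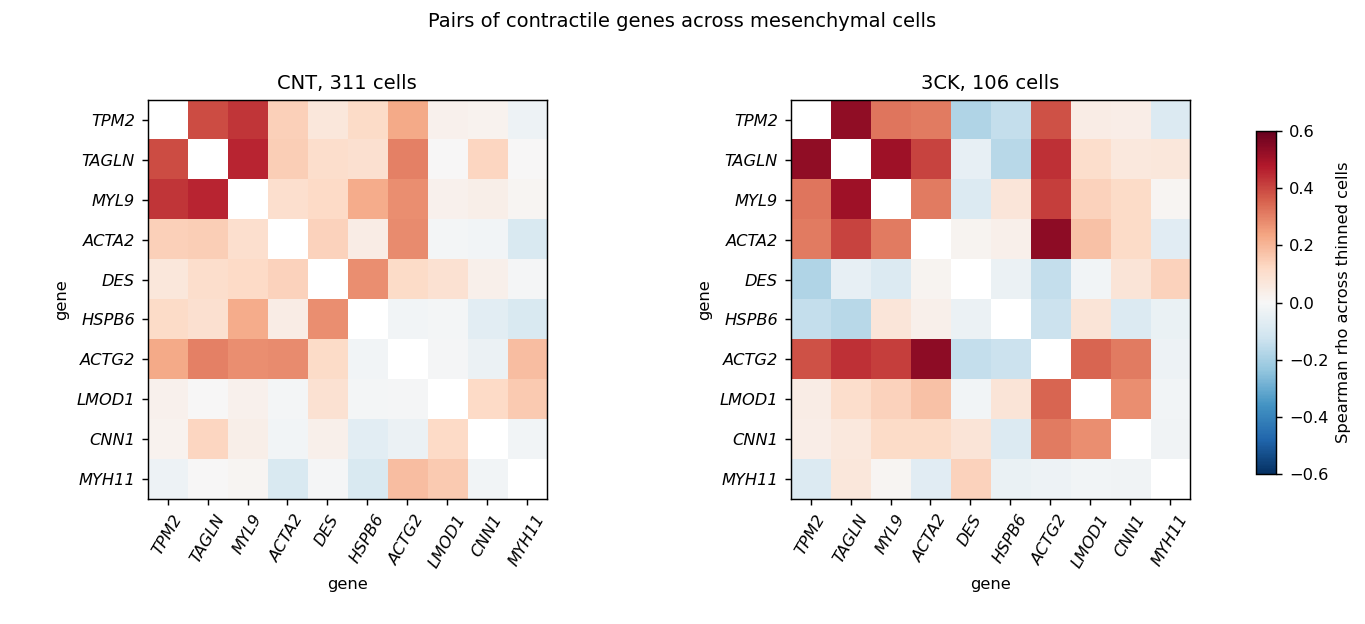
Spearman rho of each pair of the 10 genes (both axes, ordered by level) across mesenchymal cells thinned to 10000 UMIs, in CNT (left) and 3CK (right). TPM2, TAGLN and MYL9 form a block of 0.39 to 0.46 in CNT, in 3CK their values run from 0.32 to 0.53 beside equally high values of ACTG2 and ACTA2, and the 3CK row of DES runs to -0.18.

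Cycling cells, taken as those with at least 5 UMIs of the 12 cell cycle genes per 10000, made up 92 of 311 CNT and 36 of 106 3CK mesenchymal cells. In CNT several transcripts were higher in cycling cells: TAGLN stood at 593 CPM there and 333 CPM in the others, ACTA2 at 143 and 81.5 CPM, and TPM2 at 730 and 482 CPM. In 3CK the order was opposite for these genes, with TAGLN at 376 CPM in cycling and 749 CPM in other cells, ACTA2 at 65.2 and 169 CPM and TPM2 at 463 and 515 CPM. ACTG2 and CNN1 had the same order in both libraries: ACTG2 stood at 34.9 and 15.9 CPM in CNT and 38.9 and 24.9 CPM in 3CK, and CNN1 at 4.43 and 2.60 CPM and at 9.09 and 1.70 CPM. DES was lower in cycling cells of CNT, at 25.5 and 87.9 CPM, and stood at 85.6 and 84.6 CPM in 3CK. HSPB6 was lower in cycling cells of both libraries, at 46.3 and 77.1 CPM in CNT and 12.5 and 41.4 CPM in 3CK. In non-cycling cells alone, the log2 ratio of 3CK over CNT was 1.17 for TAGLN, 1.05 for ACTA2 and 0.50 for MYL9. In cycling cells it was -0.66 for TAGLN, -1.13 for ACTA2 and -0.48 for MYL9, and 1.75 for DES. These differences were not tested, and the cell cycle split was chosen after the data had been seen.

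The genes whose thinned UMIs went most closely with the sum of the 10 across mesenchymal cells were taken by the lower of the 2 libraries' rho, over the 8319 genes found in at least 10% of thinned cells of each library. They were ACTB (0.55 in CNT and 0.54 in 3CK), MYL6 (0.62 and 0.53), ANXA2 (0.44 and 0.45), LGALS1 (0.46 and 0.43), ANXA5 (0.40 and 0.43), TGFB1I1 (0.39 and 0.46), CSRP1 (0.38 and 0.38) and MYL12A (0.52 and 0.38). The sum itself had a rho of 0.34 with the cell's depth before thinning in CNT and 0.03 in 3CK, and -0.31 and -0.19 with its mitochondrial UMIs. It had 0.36 and 0.37 with KRT8 and KRT18, -0.05 and 0.22 with the 3 collagens, and 0.02 and -0.05 with the NF-κB targets.

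Epithelial cells carried TPM2, MYL9 and TAGLN at lower levels, and there the libraries differed in another way. TPM2 stood at 188 CPM in CNT against 69.0 in 3CK, a log2 ratio of -1.45 (-1.5 to -1.40). MYL9 stood at 155 and 88.6 CPM, a ratio of -0.81 (-0.85 to -0.76), and TAGLN at 139 and 128 CPM. ACTG2 showed the widest difference, with 802 UMIs in the CNT cells against 21 in the 3CK cells, or 11.5 and 0.290 CPM, a ratio of -5.30 (-6.00 to -4.68). It was found in 41 of 987 thinned CNT cells and 1 of 784 3CK cells, with at most 19 UMIs in a cell. DES was low in both, at 0.671 and 2.16 CPM, and ACTA2 stood at 12.1 and 12.2 CPM. In CNT, ACTG2 in mesenchymal cells was 1.85 times its epithelial level while DES was 105 times its own, so the genes did not keep 1 ratio between these cell groups.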

How the data were processed

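Colon organoids of the iPS line 1383D6 were sequenced as 2 libraries (10x Genomics 3' v3.1), grouped by the treatment label. The deposited files give raw UMI counts for each gene in each barcode, which the authors made with Cell Ranger 7.1.0 and GRCh38 per the submitters' processing notes; the annotation is not given in the sources used here. CNT held 3257 barcodes with 105314879 UMIs and 3CK 1641 with 94887438. Barcodes with at least 500 genes and at most 20% mitochondrial UMIs were kept, and the top Scrublet scores (scanpy 1.11.5) removed at 0.8% per 1000 barcodes, leaving 2487 and 1398 cells. In the mesenchymal gate, 3 UMIs correspond to 0.156 CPM in CNT and 0.330 CPM in 3CK.

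UMIs were summed over gated cells and scaled to CPM. Intervals are exact Poisson for CPM, derived from the exact binomial for ratios, Clopper-Pearson for shares and Newcombe for their differences (Python 3.11.15, scipy 1.17.1). Ratios and thinning were tested on simulated data. The 10 genes, the lists and the gate were chosen with earlier results of these data known. Named are all 10 genes, the most abundant, highest-ratio and lowest-ratio gene of each list at 10 CPM, the most abundant gene of each marker list and the 8 genes closest to the sum. Others named (TAGLN2, CHRM3, PLN, PRKG1, RYR2, PDLIM3, GATA6, MRTFB, SRF, TGFB1, HSPB1, HSPB8, NPNT, TYROBP, IL1B, KCNMA1, KCNMB1, CRYAB, MYLK, DCN, PTPRC, LYZ, CLDN5, CDH5, PECAM1, VWF) were chosen after their values were seen. Some genes of the lists are counted but not reported here by name. Alternatives to the filter, gate, thinning and scaling (edgeR 4.0.16 TMM factors) are given at the end.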

Additional observations from a re-analysis of the deposited data

Results flagged for a closer look

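For 3 of the 10 genes, mesenchymal and epithelial cells differed in opposite directions between the libraries, and the difference of the differences was not tested. The log2 ratio of CPM, 3CK over CNT, was 0.49 in mesenchymal and -5.30 in epithelial cells for ACTG2, 0.61 and -0.12 for TAGLN, and 0.21 and -0.81 for MYL9. The mesenchymal value for ACTG2 was -0.20 without cells that held leukocyte transcripts.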

How the results depend on the processing

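No paired analysis was possible because each group is 1 library. Depth limits CNN1, MYH11 and LMOD1, each on 115 UMIs or fewer per library. The median log2 ratio of the 10 genes (0.24 as reported) was 0.53 with the collagen threshold at 10, 0.72 with EPCAM at 0 UMIs, -0.15 without cells with leukocyte transcripts and -0.058 without the 5 cells richest in the 10 genes; under the other 11 alternatives it lay between -0.0026 and 0.41. The number of genes past 2-fold at 10 CPM (1 as reported) was 2 with collagen at 2, at 1 CPM, with any gene over 3 UMIs and without cycling cells, 0 with collagen at 10 and with TMM factors, and 4 (3 higher and 1 lower) with EPCAM at 0 UMIs. With equal weight for each cell the number stayed at 1, but the gene was TAGLN, higher in 3CK, while HSPB6 had a ratio of -0.57. The difference in the share of cells with at least 4 of the genes (1.53 points) was 14.3 points with no thinning. The sign of TPM2 turned with collagen at 10 (0.14), EPCAM at 0 (0.27), TMM (0.017), equal weight (0.026), without leukocyte transcripts (0.11) and without cycling cells (0.10). ACTA2 turned over all EPCAM-low cells (-0.020), without leukocyte transcripts (-0.10) and without the richest cells (-0.36), ACTG2 without leukocyte transcripts (-0.20) and DES without cycling cells (-0.054). The share difference of MYL9 turned over all EPCAM-low cells (-4.02 points). The causes were not tested. Of 150 ratios over the alternatives, 80 lay inside the reported counting interval, 59 outside it, and 11 reversed. Reversal was counted only where the reported interval left out 0. CNN1, which kept its sign in 13 of 15 settings, therefore adds none to the 11. The wide interval of MYH11 held all 15 of its values. The alternatives without leukocyte transcripts, cycling cells or the richest cells and over all EPCAM-low cells were chosen after seeing the data.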

Other observations

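Among mesenchymal cells of 3CK, 39 of 106 had a UMI of IL1B, a cytokine gene, after thinning, against 20 of 311 in CNT. In 3CK these cells carried ACTA2 at 52.2 CPM against 192 CPM in the other cells, TAGLN at 469 against 728 CPM, and SMTN at 86.0 against 27.7 CPM. The 10 genes did not share a direction in this split of 3CK. TPM2 stood at 587 against 431 CPM, MYL9 at 410 against 373, ACTG2 at 34.0 against 26.7 and CNN1 at 7.80 against 1.72. HSPB6, LMOD1 and MYH11 had lower CPM in the IL1B cells. DES was higher in IL1B cells of both libraries, at 113 against 64.2 CPM in 3CK and 166 against 63.5 CPM in CNT. The split was chosen after the data had been seen, and no difference was tested.

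In epithelial cells, other genes of the contractile lists also differed between the libraries. KCNMA1, a calcium-activated potassium channel, stood at 11.7 CPM in CNT against 2.06 in 3CK, and CRYAB, a small heat shock gene, at 43.0 and 9.40 CPM.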
